A study of Homo sapiens with 6 samples.

Results

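Enzymes that add or remove methyl groups on lysine, together with the related PRDM proteins, were followed by RNA sequencing in cells labelled HT29, an established human colorectal cancer line, after transfection of an siRNA against RNF6. RNF6 encodes a RING-type E3 ubiquitin ligase. Members were taken by symbol from the count tables: SETD, KDM and PRDM names with a number, KMT2 names, and further symbols such as EZH2, DOT1L and WHSC1, without antisense names. The rule found 68 genes among 56638 listed symbols. The study holds 6 libraries of unmodified cells labelled HT29. Of these, 3 labelled wild type control received a nonspecific siRNA. The other 3, labelled RNF6 knockdown, received RNF6 siRNA (knockdown libraries below). The numbers in the sample titles were read as replicate numbers, and the labels say neither whether they mark separate cultures nor whether they mark different siRNAs. What the p-values measure is thus library-to-library spread, which may be technical.

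Most lysine methyltransferases share a catalytic SET domain and use S-adenosylmethionine as methyl donor, while DOT1L has a different fold. Methylation of lysine 4, 36 or 79 of histone H3 (H3K4, H3K36, H3K79) is found at active genes, and methylation of H3K9, H3K27 or H4K20 is found mostly in repressed or compacted chromatin. The KDM1 demethylases use flavin, and the JmjC-domain demethylases, KDM2 to KDM8, use iron, oxygen and 2-oxoglutarate. PRDM proteins carry a SET-related PR domain with zinc fingers, and many of them act as DNA-bound transcription factors. In intestinal epithelium these enzymes are studied mainly as regulators of differentiation and as genes altered in tumours.

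Gene counts summed to between 6808771 and 11071456 reads per library, so that 1 read was worth 0.0897 to 0.148 CPM (counts scaled to a common library total and corrected by TMM, an adjustment for library composition). RNF6, the targeted gene, stood at 54.3, 45.2 and 57.8 CPM in control replicates 1, 2 and 3 and at 16.5, 16.2 and 16.9 CPM in knockdown replicates 1, 2 and 3. The groups did not overlap. Of 10 markers of colorectal epithelium, EPCAM, CDH1 and the keratins KRT8, KRT18 and KRT19 were abundant. CDX2 stood at 13.2 to 18.1 CPM over all libraries, and KRT20 was low, at 0.443 to 2.35 CPM. CDX1 had 0 reads in all 6 libraries, LGALS4 at most 2 and VIL1 at most 5, so that only some of the markers of the labelled cell type were present. The summed level of the 10 markers was 4351 to 5651 CPM in control and 2439 to 2823 CPM in knockdown libraries, and 4 of the 7 tested markers were lower. These 4 were the keratins KRT8, KRT18, KRT19 and KRT20. EPCAM, CDH1 and CDX2 were not called. Their means were 218, 105.9 and 15.85 CPM in control and 226.7, 113.6 and 16.1 CPM in knockdown libraries. Among fibroblast markers COL1A1 alone was abundant, and the summed level of the 7 markers was 50.1 to 65.4 CPM in control and 70.1 to 84.8 CPM in knockdown libraries. Of these markers, COL1A2, COL3A1, LUM, DCN and THY1 had at most 4 reads in any library. Leukocyte markers summed to 3.1 CPM or less and endothelial markers to 2.69 CPM or less, with CD68 and PECAM1 at 0. The endothelial marker VWF was lower, from a mean of 1.96 CPM in control to 1 CPM in knockdown libraries. The 3 muscle markers summed to 9.63 to 10.67 CPM in control and 7.26 to 9.3 CPM in knockdown libraries, with 0 called. The part of these marker shifts in the results that follow was not tested, and in bulk RNA fewer cells of a type and less RNA per cell cannot be told apart.

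Of the 68 members, 61 passed the filter on low counts and were tested, of which 59 had at least 10 reads in every library. The other 7, KDM4E, KDM5D, PRDM7, PRDM9, PRDM12, PRDM13 and PRDM14, had at most 7 reads in any library, and 3 of them had 0 reads throughout. The testis-restricted PRDM9 and the germ-cell factor PRDM14 are among these. After RNF6 siRNA, 21 of the 61 tested members were higher and 6 lower at an adjusted p below 0.05 (edgeR quasi-likelihood test, Benjamini-Hochberg adjustment over all 14685 genes tested). That is 44.3% of tested members, against 32.7% of all genes tested. By direction, 34.4% of tested members were higher, against 16.6% of all genes, and 9.84% were lower, against 16.1%. For 35 of the 61 tested members, 24 upward and 11 downward, every library of one group lay above every library of the other, which is 57.4% of them against 44.2% of all genes tested. The median log2 fold change (RNF6 siRNA minus control siRNA) was 0.13 over tested members and 0.006 over all genes tested. A rise of at least 2-fold was called for SETD7, KDM2B and PRDM1 (3 members, with 3.09% of all genes past the same fold upward) and a fall of that size for 0 members (2.65% of all genes). These are descriptions of a list chosen by name, and no test of the list was made.

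**Figure D1:**
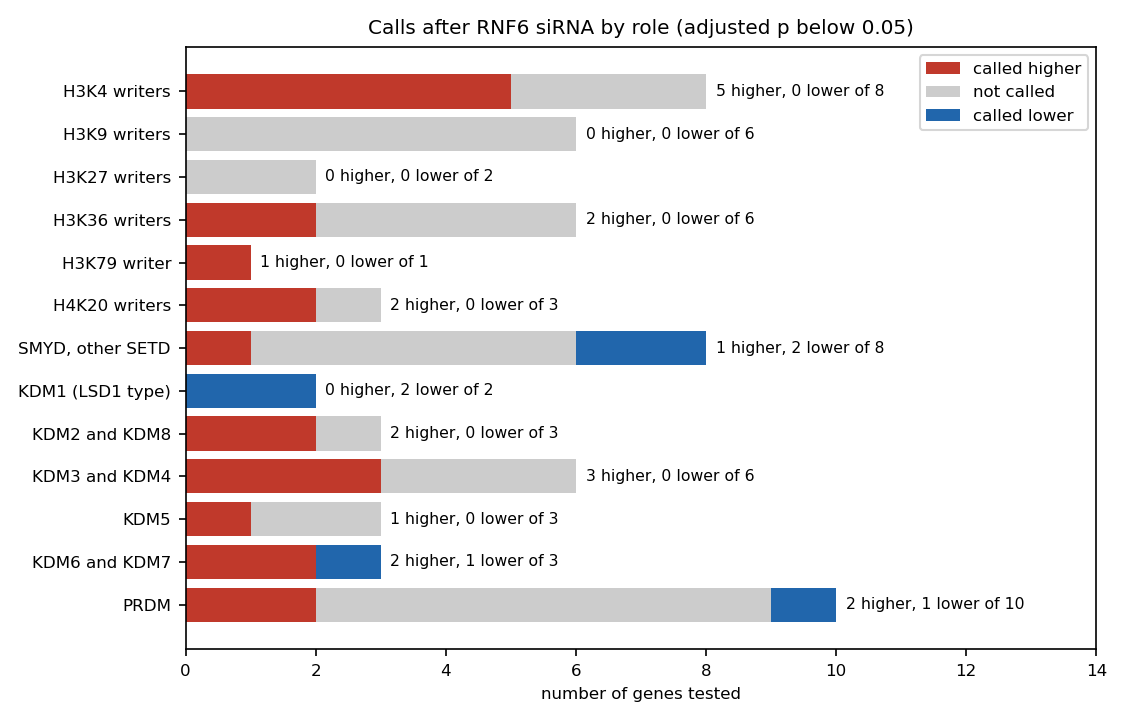
Number of tested members in each role class that were called higher (red), called lower (blue) or not called (grey) after RNF6 siRNA, at an adjusted p below 0.05. The H3K4 writers hold 5 higher of 8, the H3K9 and H3K27 writers hold 0 calls, and both KDM1 genes were lower. Of all genes tested, 32.7% were called.

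How these counts depended on single libraries was examined by leaving out each in turn. The number of higher members then ran from 12 to 24 and that of lower members from 3 to 6. The lowest counts were 12 higher members without knockdown replicate 3 and 3 lower members without knockdown replicate 2. Control replicate 1 stood apart from control replicate 2 for many members: it was the highest control library for 38 of 61 tested members (62.3%, against 40.3% of all genes tested), and control replicate 2 was the lowest for 36 (59%, against 37.6%). The first principal component of the tested members separated the groups and carried 73.6% of their variance. The second, with 13.7%, had control replicate 1 at one end and knockdown replicate 1 at the other. A further fit added replicate number as a term (replicate block). With it the calls of KDM1A, KDM1B, KDM3A, KDM3B, KDM5A, KDM7A, KMT2B, KMT2E, SETD1A, SMYD2 and SUV420H2 were lost. Calls lost to this block are not repeated in the lists for single genes below.

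Among the tested members the largest change was that of SETD7, a SET-domain enzyme that monomethylates H3K4 and also methylates non-histone proteins. SETD7 stood at 48.3, 34.6 and 38.2 CPM in control replicates 1, 2 and 3 and at 134, 146 and 163 CPM in knockdown replicates 1, 2 and 3. Every RNF6 siRNA library was above every control library by a wide margin. From a mean of 40.4 ± 7.11 CPM to one of 148 ± 14.4 CPM (SD, n = 3), SETD7 rose 3.68-fold (log2 fold change 1.88, SE 0.134, edgeR adjusted p = 1.37e-06), with a 95% interval of the log2 difference from 1.59 to 2.17. Per kilobase of exon, its level went from 2.9 CPM in control to 10.6 CPM in knockdown libraries. Its call held in all 12 alternative analyses, over log2 fold changes of 1.77 to 2.01.

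The 250 bases before the annotated transcription start are shown for 4 members. They are SETD7 and PRDM4, the largest rise and fall among tested members, and KDM4B and KDM6A, JmjC genes that moved in opposite directions. Each of the 4 has a single start in the RefSeq promoter table (GRCh38.p14), a later build than that of the counts. Capitals mark motifs found on either strand: the GC box GGGCGG, the CCAAT box CCAAT, the hypoxia response core ACGTG, the E-box CACGTG (which contains ACGTG), the STAT motif TTCNNNGAA and the TATA box TATAAA.
SETD7 (chr4:139556220-139556469, minus strand): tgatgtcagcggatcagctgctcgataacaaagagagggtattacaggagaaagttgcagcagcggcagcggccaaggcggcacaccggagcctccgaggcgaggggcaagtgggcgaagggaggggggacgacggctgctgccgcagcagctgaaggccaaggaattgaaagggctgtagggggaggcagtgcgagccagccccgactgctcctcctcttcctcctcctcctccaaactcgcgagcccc
PRDM4 (chr12:107761138-107761387, minus strand): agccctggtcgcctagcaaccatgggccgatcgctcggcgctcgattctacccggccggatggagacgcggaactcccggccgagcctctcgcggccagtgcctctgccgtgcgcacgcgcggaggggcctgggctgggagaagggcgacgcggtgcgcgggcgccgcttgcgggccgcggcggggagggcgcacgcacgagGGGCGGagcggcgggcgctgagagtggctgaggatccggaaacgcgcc
KDM4B (chr19:4968863-4969112, plus strand): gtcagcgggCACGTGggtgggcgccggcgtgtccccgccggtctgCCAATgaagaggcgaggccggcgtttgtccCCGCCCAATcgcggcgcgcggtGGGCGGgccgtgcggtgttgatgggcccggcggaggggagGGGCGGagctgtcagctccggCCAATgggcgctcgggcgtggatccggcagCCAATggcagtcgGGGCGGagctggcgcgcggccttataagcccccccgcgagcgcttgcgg
KDM6A (chrX:44872938-44873187, plus strand): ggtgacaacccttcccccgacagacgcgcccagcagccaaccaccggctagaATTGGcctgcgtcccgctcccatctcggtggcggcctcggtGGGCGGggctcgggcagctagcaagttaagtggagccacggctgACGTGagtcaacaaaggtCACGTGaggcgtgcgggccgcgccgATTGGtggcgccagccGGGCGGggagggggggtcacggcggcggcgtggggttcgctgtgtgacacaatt

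The SETD7 window held 0 of the 6 motifs. A GC box was found in at least 1 window of 75.4% of the 10521 tested genes in the table and of 81.8% of the 55 tested members in it. The windows of KDM4B, which rose, and of KDM6A, which fell, both held ACGTG, as did 3052 of the 10521 genes and 17 of the 55 members (30.9%). Among members called higher, 4 of 19 in the table held ACGTG (21.1%), and among those called lower 2 of 6. The STAT motif, searched because the study concerns JAK/STAT3 signalling, was in 0 of these 25 called members and in 1 of the 55, PRDM10, against 7.35% of tested genes. A match describes letters in the window and no more.

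SETD7 was joined by 4 other genes of the H3K4 class. The KMT2 and SETD1 genes encode the catalytic subunits of COMPASS-type complexes, which methylate H3K4 at promoters and enhancers. Of the 8 tested H3K4 genes, 5 were higher and 0 lower (62.5% called, against 32.7% of all genes tested), and all 8 had a higher mean after RNF6 siRNA, with log2 fold changes from 0.29 to 1.88. KMT2C, which acts at enhancers, stood at 93.5, 61.8 and 85.8 CPM in the controls and 98.8, 122 and 141 CPM in the knockdown libraries. The groups did not overlap, although control replicate 1 came close to knockdown replicate 1. KMT2C rose 1.5-fold (log2 fold change 0.59, SE 0.159, adjusted p = 0.0133), and the call was lost on leaving out knockdown replicate 3 (adjusted p = 0.094).

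KMT2E, whose own catalytic activity is not established, rose 1.40-fold (adjusted p = 0.0196). SETD1A rose 1.39-fold (adjusted p = 0.0141) and KMT2B 1.26-fold (adjusted p = 0.0362), by the same test. The KMT2E call was lost on leaving out control replicate 2 (adjusted p = 0.0503), control replicate 3 (0.0977), or knockdown replicate 2 (0.0607) or 3 (0.105). That of SETD1A was lost on leaving out knockdown replicate 1 (0.0504) or 3 (0.0566). The KMT2B call did not survive leaving out control replicate 1 (0.0686), 2 (0.0564) or 3 (0.0958), or knockdown replicate 1 (0.0672) or 3 (0.187), nor did it survive testing all genes unfiltered (0.0735). KMT2A (log2 fold change 0.36, adjusted p = 0.0725), SETD1B (0.32, 0.0888) and KMT2D (0.29, 0.115) did not pass. KMT2A and KMT2D passed without control replicate 1 (adjusted p = 0.00501 and 0.0282) or without knockdown replicate 1 (0.0156 and 0.0489), SETD1B passed without control replicate 1 (0.0248), and KMT2A also without the filter (0.021). In 4 of the 5 KMT2 genes control replicate 1 was the highest and control replicate 2 the lowest control. The same order held for 50.8% of tested members and 28.9% of all genes tested.

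**Figure D2:**
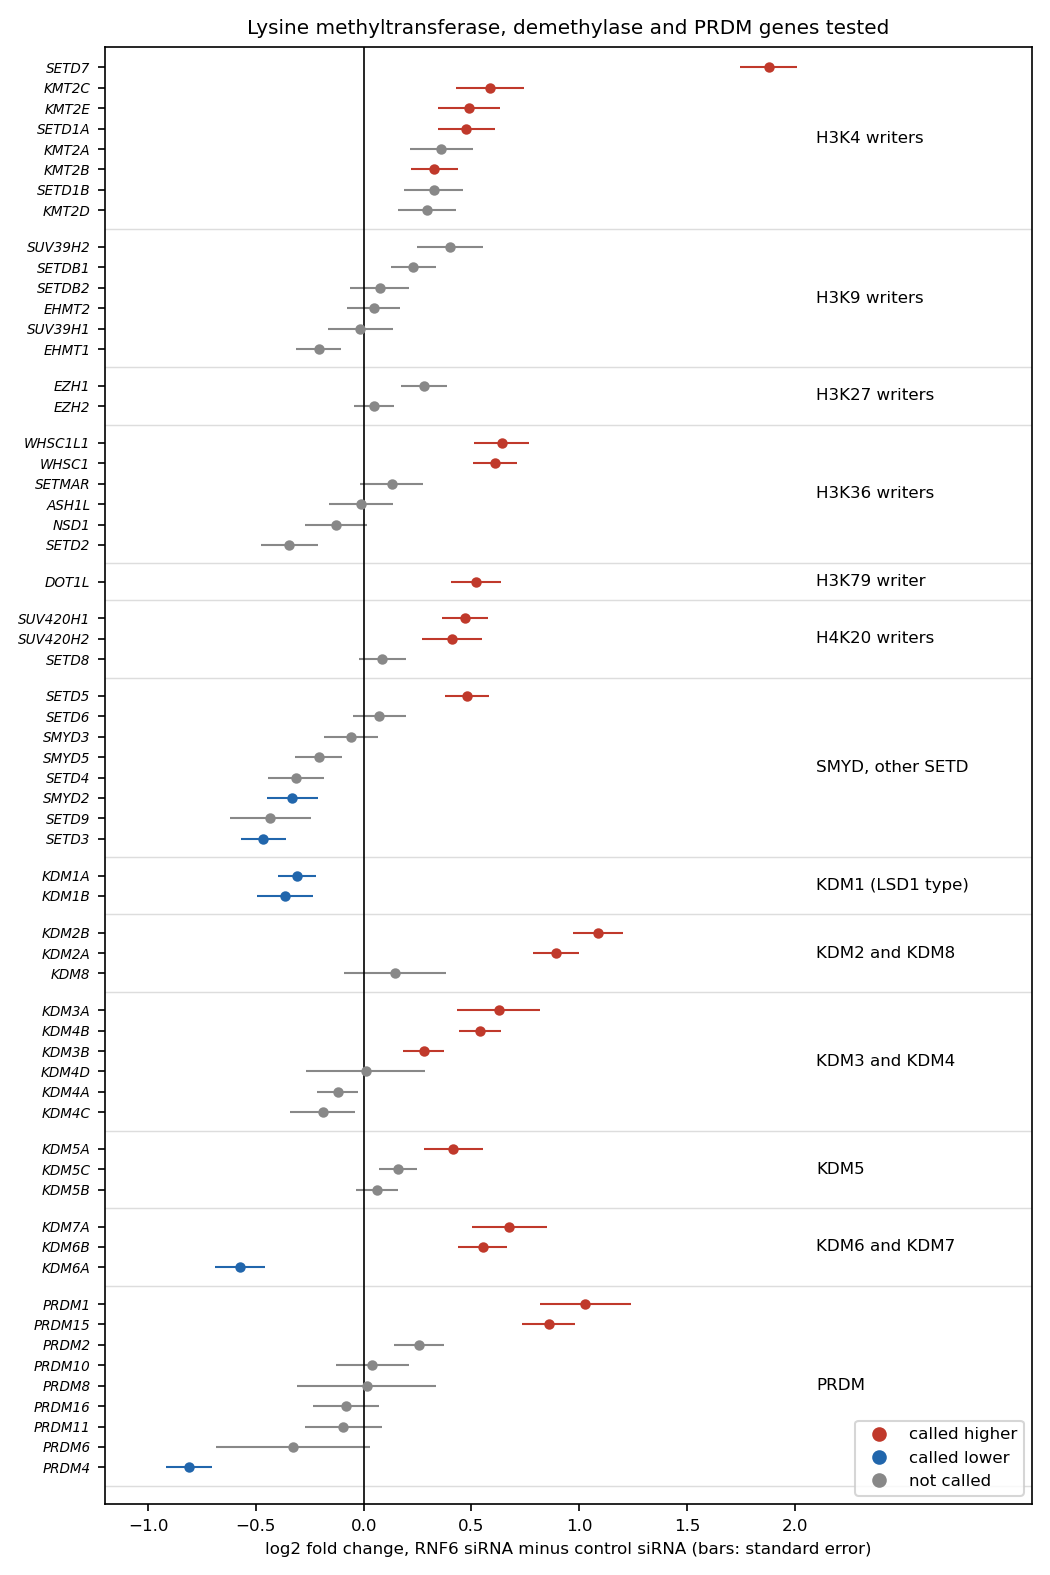
Log2 fold change of the tested members, 1 of them not shown (RNF6 siRNA minus control siRNA, bars are the standard error), grouped by role, with called genes in red (higher) or blue (lower). SETD7 lies at 1.88, apart from the next gene, KDM2B at 1.09, and PRDM4 is the lowest at -0.81.

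Demethylases of H3K4 moved in different directions. KDM1A (LSD1) and KDM1B (LSD2) are flavin-dependent enzymes that remove mono- and dimethylation from H3K4. Both were lower, as were 16.1% of all genes tested. KDM1A had the highest level per kilobase of exon of all members, at 57.5 CPM in control and 46.4 CPM in knockdown libraries. It stood at 307, 333 and 299 CPM in the controls and 256, 248 and 253 CPM in the knockdown libraries, with no overlap. KDM1A fell 1.24-fold (log2 fold change -0.31, SE 0.0897, adjusted p = 0.0186). KDM1B stood at 69.6, 52.2 and 60.5 CPM and at 41.5, 51.1 and 49.1 CPM, with control replicate 2 just above knockdown replicate 2. KDM1B fell 1.29-fold (log2 fold change -0.36, SE 0.129, adjusted p = 0.0451).

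The KDM1A call was lost on leaving out control replicate 2 (adjusted p = 0.0581) or knockdown replicate 2 (0.0582) or 3 (0.0657). That of KDM1B was lost on leaving out control replicate 1 (0.0836) or 3 (0.116), or knockdown replicate 1 (0.146), 2 (0.0605) or 3 (0.1), and with upper-quartile scaling (0.052). KDM5A, a JmjC enzyme that removes H3K4 trimethylation, rose 1.33-fold (adjusted p = 0.0328), although knockdown replicate 1, at 67.9 CPM, lay below control replicate 1, at 70.6 CPM. Its call was lost on leaving out control replicate 2 (0.083) or 3 (0.12) or knockdown replicate 2 (0.121) or 3 (0.153). Its relative KDM5C had the highest level per kilobase of the KDM5 genes and stood at 122, 124 and 127 CPM in control and 137, 141 and 139 CPM in knockdown libraries. The KDM5C groups did not overlap, but the difference did not pass (log2 fold change 0.16, 95% interval -0.04 to 0.35, adjusted p = 0.195). KDM5B was at log2 fold change 0.06 (95% interval -0.15 to 0.27).

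Among H3K36 enzymes the largest changes were those of the KDM2 genes. KDM2A and KDM2B are JmjC enzymes that remove H3K36 methylation and bind unmethylated CpG islands through a CXXC domain, and KDM2B also belongs to a variant Polycomb repressive complex. KDM2B stood at 20.6, 18 and 20.1 CPM in the controls and 43.3, 38.4 and 42.7 CPM in the knockdown libraries. KDM2B rose 2.12-fold (log2 fold change 1.09, SE 0.117, adjusted p = 2.63e-05). KDM2A stood at 71.7, 62.6 and 72.5 CPM and at 123, 122 and 139 CPM, respectively. KDM2A rose 1.86-fold (log2 fold change 0.89, SE 0.107, adjusted p = 5.77e-05). In both genes the groups were well apart, and both calls held in all 12 alternatives. KDM8, whose demethylase activity is disputed, had 2.2 to 3.4 CPM in every library and did not pass (log2 fold change 0.15, adjusted p = 0.676).

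Among H3K36 methyltransferases, 2 of 6 were higher and 0 lower, and the 33.3% called is close to the 32.7% of all genes. WHSC1 (NSD2), which dimethylates H3K36, had the highest level per kilobase of the class and stood at 170, 144 and 160 CPM in the controls and 232, 227 and 263 CPM in the knockdown libraries. WHSC1 rose 1.53-fold (log2 fold change 0.61, SE 0.102, adjusted p = 7.01e-04). Its paralog WHSC1L1 (NSD3) stood at 67.3, 49.7 and 56.3 CPM and at 78.7, 95.9 and 95.1 CPM. WHSC1L1 rose 1.56-fold (log2 fold change 0.64, SE 0.129, adjusted p = 0.00243), and in neither gene did the groups overlap. The other paralog, NSD1, ranged from 94.2 to 136 CPM in control and from 94 to 121 CPM in knockdown libraries (log2 fold change -0.13, adjusted p = 0.521). The difference in response between these paralogs was not tested.

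SETD2, the enzyme that trimethylates H3K36 along transcribed genes, stood at 103, 82.9 and 96 CPM in control and 61.1, 76.2 and 84.7 CPM in knockdown libraries. Knockdown replicate 3 lay above control replicate 2, and SETD2 did not pass (log2 fold change -0.35, adjusted p = 0.0606). It passed without control replicate 2 (adjusted p = 0.0142), or knockdown replicate 3 (0.0498) and when no filter was applied (0.0244). ASH1L, which dimethylates H3K36, had a log2 fold change of -0.01 and SETMAR one of 0.13, with adjusted p of 0.952 and 0.529.

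**Figure D3:**
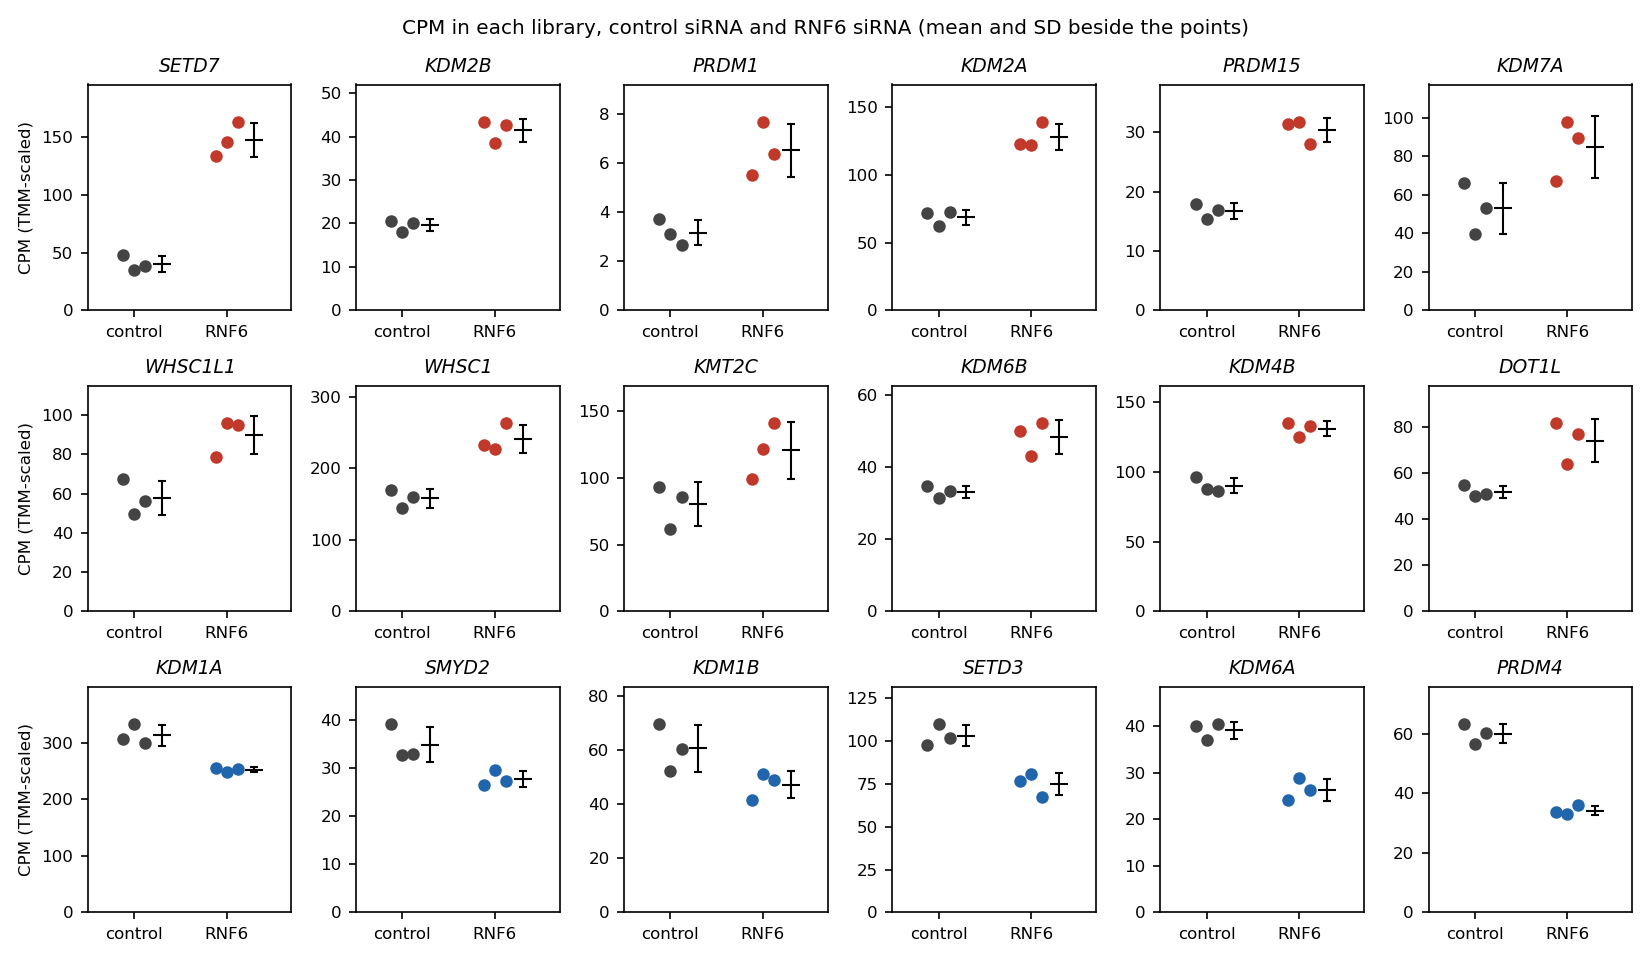
CPM in each library for the 12 largest rises (red) and the 6 falls (blue) among called members without overlap between the groups. Grey points are control siRNA libraries, each vertical axis starts at 0, and the bar beside the points gives the mean and SD of 3 libraries. SETD7 runs from 34.6 to 48.3 CPM in control and from 134 to 163 CPM in knockdown libraries.

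Writers of H3K9 methylation passed in 0 of 6 tested genes by edgeR, DESeq2 and limma-voom alike, with 2 of the 6 at an unadjusted p below 0.05. Of all genes tested, edgeR called 32.7%, and no test of this small class was made. EHMT2 (G9a), the dimethylating enzyme with the highest level per kilobase of the class, stood at 63.3, 80.6 and 75.9 CPM in the controls and 83.2, 66.3 and 77.5 CPM in the knockdown libraries. The groups overlapped (log2 fold change 0.05, 95% interval -0.22 to 0.31). Its partner EHMT1 was at -0.21 (adjusted p = 0.138), and SETDB1, which silences repeats and zinc finger gene clusters, at 0.23 (adjusted p = 0.110). SUV39H1 and SUV39H2 trimethylate H3K9 in pericentric heterochromatin and were at -0.02 and 0.40 (adjusted p = 0.950 and 0.0623), and SETDB2 was at 0.07. SUV39H2 passed without control replicate 1 (adjusted p = 0.00275), with upper-quartile scaling (0.0485) and without the filter on low counts (0.0493).

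JmjC demethylases of H3K9 were higher for 3 of 6 tested genes and lower for 0 (50% called, against 32.7% of all genes). KDM4B, which acts on trimethylated H3K9, stood at 96.4, 88 and 86 CPM in control and 135, 125 and 133 CPM in knockdown libraries, with no overlap. KDM4B rose 1.46-fold (log2 fold change 0.54, SE 0.0976, adjusted p = 0.00115). KDM3B had the highest level per kilobase of the class, at 128 to 145 CPM in control libraries and 157 CPM or more in knockdown libraries. From 134 ± 9.11 to 163 ± 6.34 CPM (SD, n = 3), KDM3B rose 1.21-fold (log2 fold change 0.28, SE 0.0955, adjusted p = 0.0397), without overlap. Its call was lost on leaving out control replicate 2 (adjusted p = 0.101) or 3 (0.203), or knockdown replicate 1 (0.0598), 2 (0.0828) or 3 (0.165), and without the filter (0.114).

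KDM3A, a demethylase of mono- and dimethylated H3K9 known to be induced by hypoxia, stood at 178, 101 and 109 CPM in the controls and 173, 246 and 179 CPM in the knockdown libraries. Control replicate 1 lay above knockdown replicate 1, so the groups overlapped. KDM3A rose 1.54-fold (log2 fold change 0.63, SE 0.194, adjusted p = 0.0252), and the call ended with DESeq2 (adjusted p = 0.144), without control replicate 2 (0.133) or 3 (0.126), or knockdown replicate 2 (0.14) or 3 (0.0529). Control replicate 1 was likewise highest for KDM4C, at 50.6 CPM against 33.4 to 35.7 CPM in the other 5 libraries, and KDM4C did not pass (log2 fold change -0.19, adjusted p = 0.361). KDM4A was at -0.12 (adjusted p = 0.365), with 48.5% of its exon bases under annotated exons of other genes, and KDM4D, at 2.69 to 5.76 CPM, at 0.01.

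The H3K27 methyltransferases EZH1 and EZH2, catalytic subunits of Polycomb repressive complex PRC2, passed in 0 of 2 cases by edgeR, DESeq2 and limma-voom, with 1 at an unadjusted p below 0.05. The share of all genes tested that edgeR called was 32.7%. EZH2 had the highest level per kilobase after KDM1A and stood at 104, 108 and 103 CPM in control and 109, 107 and 109 CPM in knockdown libraries. The difference was small (log2 fold change 0.05, 95% interval -0.15 to 0.25). EZH1 stood at 43.5, 39.4 and 42.1 CPM and at 48.1, 53.1 and 50.7 CPM, without overlap, and did not pass (log2 fold change 0.28, adjusted p = 0.0568). It passed with upper-quartile scaling (adjusted p = 0.0442) and without control replicate 1 (0.0465).

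Demethylases of H3K27 were called in all 3 tested genes, 2 higher and 1 lower, where 32.7% of all genes tested were called. KDM6A (UTX), an X-linked subunit of the KMT2C and KMT2D complexes, stood at 39.9, 36.9 and 40.4 CPM in control and 24.1, 28.8 and 26.2 CPM in knockdown libraries. KDM6A fell 1.49-fold (log2 fold change -0.57, SE 0.115, adjusted p = 0.00229). Its paralog KDM6B (JMJD3), an inducible gene of inflammatory and developmental responses, stood at 34.7, 31.4 and 33.3 CPM and at 49.9, 43.1 and 52.2 CPM. KDM6B rose 1.47-fold (log2 fold change 0.55, SE 0.114, adjusted p = 0.00272). In neither gene did the groups overlap, and both calls held in all 12 alternatives. KDM7A, which acts on H3K9 and H3K27, stood at 66.2, 39.6 and 53.4 CPM and at 67.1, 97.7 and 89.6 CPM, with control replicate 1 and knockdown replicate 1 less than 1 CPM apart. KDM7A rose by a factor of 1.6 (log2 fold change 0.68, SE 0.176, adjusted p = 0.0107), and the call was lost on leaving out knockdown replicate 2 (adjusted p = 0.0614) or 3 (0.058).

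DOT1L, the H3K79 methyltransferase, stood at 54.9, 50.1 and 50.8 CPM in control and 81.8, 63.9 and 76.9 CPM in knockdown libraries, without overlap. DOT1L rose 1.43-fold (log2 fold change 0.52, SE 0.116, adjusted p = 0.00433). SUV420H1 and SUV420H2 add the second and the third methyl group to H4K20 after SETD8 has added the first. SUV420H1 rose 1.38-fold (adjusted p = 0.00493) and SUV420H2 1.33-fold (adjusted p = 0.0389), by the same test. The SUV420H2 call was lost on leaving out control replicate 1 (adjusted p = 0.0895) or 3 (0.133), or knockdown replicate 1 (0.116) or 3 (0.119), and with DESeq2 (0.0567). SETD8, the class member with the highest level per kilobase, stood at 63.3, 65.2 and 69.3 CPM and at 76.3, 62.6 and 70.8 CPM. The SETD8 groups overlapped (log2 fold change 0.09, 95% interval -0.15 to 0.32).

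SMYD proteins and the remaining SETD proteins act largely on non-histone substrates, or have activities that are debated, and 1 of 8 was higher and 2 lower (37.5% called, against 32.7% of all genes). SETD5, the class member with the highest level per kilobase, stood at 213, 176 and 197 CPM in the controls and 249, 273 and 294 CPM in the knockdown libraries. SETD5 rose 1.39-fold (log2 fold change 0.48, SE 0.103, adjusted p = 0.0036), without overlap. The antisense-named SETD5-AS1 rose as well (log2 fold change 0.51, adjusted p = 0.0199), at 7.27 to 9.08 CPM in control and 10.9 to 12.1 CPM in knockdown libraries. For SETD5-AS1 the call did not hold with DESeq2 (0.0548) or without control replicate 2 (0.0839) or 3 (0.0802) or knockdown replicate 2 (0.0572). Counting that does not use strand cannot separate overlapping partners, and the strand setting of these counts is not known. In the annotation used for exon lengths, no exon base of SETD5 lies under an exon of another gene. That annotation is of a later build than the counts, whose own annotation release is not known. Whether reads of SETD5 and SETD5-AS1 were counted for the wrong partner was not tested. SETD3, a histidine methyltransferase of actin, stood at 98, 110 and 102 CPM and at 76.5, 80.7 and 67.7 CPM.

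SETD3 fell 1.38-fold (log2 fold change -0.47, SE 0.106, adjusted p = 0.00502), without overlap between the groups. SMYD2, which methylates p53 and other proteins, stood at 39.1, 32.6 and 32.9 CPM in control and 26.4, 29.5 and 27.2 CPM in knockdown libraries. SMYD2 fell 1.26-fold (log2 fold change -0.33, SE 0.119, adjusted p = 0.048), and was no longer called on leaving out control replicate 1 (adjusted p = 0.111) or 3 (0.0874), or knockdown replicate 1 (0.127), 2 (0.0615) or 3 (0.147), with upper-quartile scaling (0.0586), with DESeq2 (0.0735) and without the filter (0.0673). SETD9 (log2 fold change -0.43, adjusted p = 0.0966), SETD4 (-0.31, 0.0813) and SMYD5 (-0.21, 0.163) had groups without overlap but did not pass. SETD6 and SMYD3 had log2 fold changes of 0.07 and -0.06.

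PRDM genes were mostly low, and 10 of 15 were tested, of which 2 were higher and 1 lower, so that the 30% called is close to the 32.7% of all genes. PRDM1 (BLIMP1), a repressor that controls plasma cell and intestinal maturation, stood at 3.71, 3.13 and 2.67 CPM in control and 5.52, 7.67 and 6.37 CPM in knockdown libraries. PRDM1 rose 2.04-fold (log2 fold change 1.03, SE 0.21, adjusted p = 0.00257), from between 25 and 28 reads per control library. PRDM15 stood at 18, 15.4 and 16.9 CPM and at 31.4, 31.7 and 28.1 CPM. PRDM15 rose 1.81-fold (log2 fold change 0.86, SE 0.123, adjusted p = 2.18e-04). PRDM4 had the highest level per kilobase of the PRDM genes and stood at 63.3, 56.7 and 60.3 CPM and at 33.6, 33.1 and 36 CPM.

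PRDM4 fell 1.75-fold (log2 fold change -0.81, SE 0.106, adjusted p = 1.12e-04), the largest fall among the tested members. None of these 3 PRDM genes had overlapping groups, and all 3 calls held in all 12 alternatives. PRDM2, PRDM6, PRDM8, PRDM10, PRDM11 and PRDM16 lay between log2 fold changes of -0.33 and 0.26 and did not pass. PRDM6 and PRDM8 were the tested members with fewer than 10 reads in some library.

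**Figure D4:**
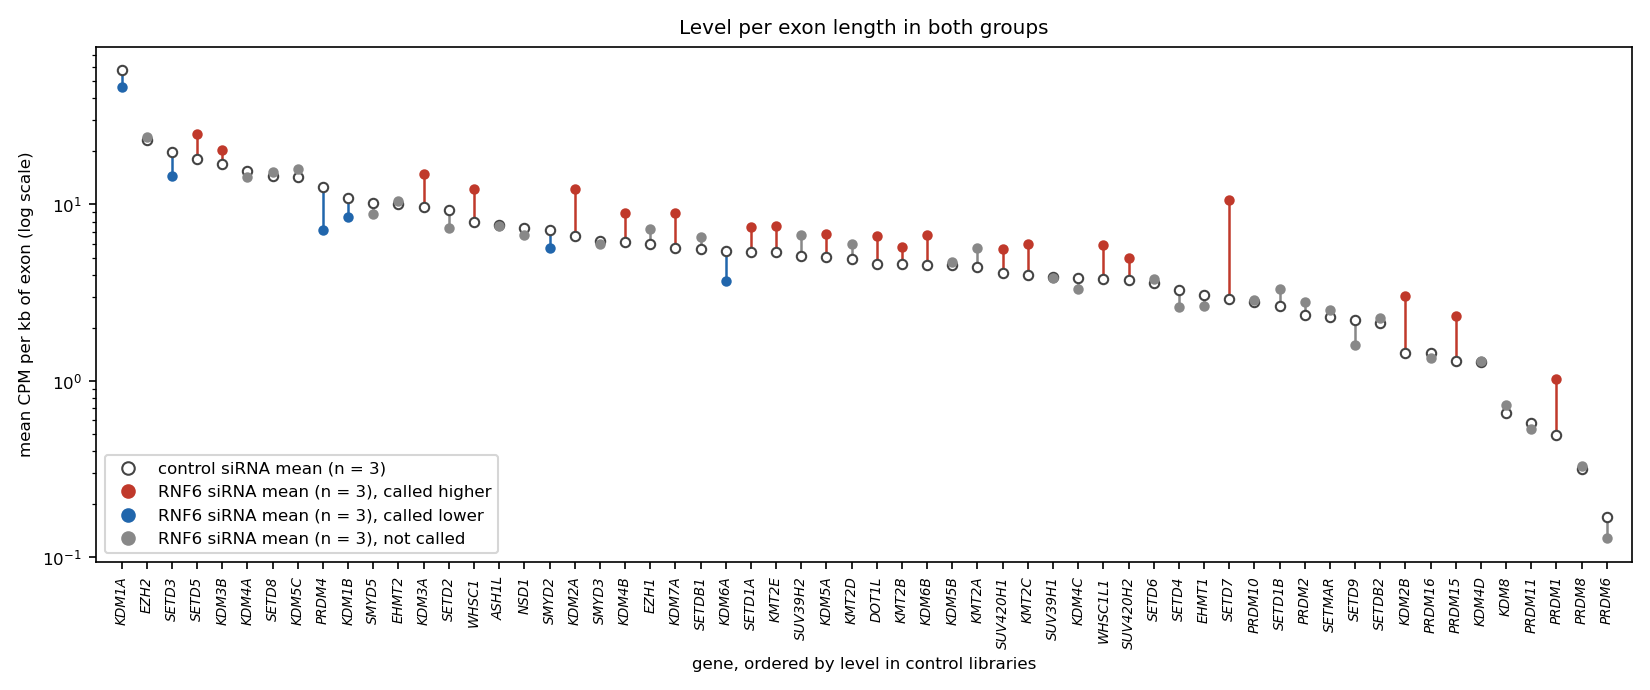
Mean CPM per kilobase of exon (log scale) in control (open points) and knockdown libraries (filled points) for the tested members, 1 of them not shown, ordered by control level. SETD7 goes from 2.9 to 10.6 CPM per kilobase, while KDM1A is highest in both groups at 57.5 and 46.4.

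Across the 34 tested members that were not called, log2 fold changes ran from -0.43 to 0.40. Of these, 9 had an unadjusted p below 0.05. Only 3 tested members had more than 20% of their exon bases under exons of other genes, KDM4A, SUV39H1 and SETD6. Of them 0 were called, where 32.7% of all genes tested were called. Some called members had smaller overlaps, the largest being 11.5% for DOT1L, then 4.87% for KDM2B and 4.79% for WHSC1L1. KMT2A, which was not called, had 18.9%. The part of such overlap in the calls was not tested.

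Partner genes of these enzymes were taken from 8 lists of complexes and related enzymes. Of 85 tested cases, 32 were called, or 37.6% (20 higher, 12 lower), against 32.7% of all genes. With the replicate block, 14 were higher and 7 lower. In the CoREST complex, which joins KDM1A to histone deacetylases, 5 of 12 genes were higher and 1 lower (50% called). HDAC1 rose 2.22-fold, from 174, 198 and 185 CPM in control to 435, 404 and 401 CPM in knockdown libraries (log2 fold change 1.15, SE 0.0942, adjusted p = 3.61e-06). Its paralog HDAC2 fell 1.55-fold, from 245, 245 and 234 CPM to 151, 167 and 151 CPM (adjusted p = 2.47e-04). HMG20B, a DNA-bending subunit, rose 1.74-fold (adjusted p = 1.72e-04).

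Of 12 partners and readers of H3K9 methylation, 2 were higher and 1 lower, or 25% called against 32.7% of all genes, and 2 were lower without control replicate 1 or 2 or with no filter. CBX1 (HP1 beta), which binds methylated H3K9, fell 2.34-fold, from 293, 282 and 282 CPM in control to 126, 122 and 118 CPM in knockdown libraries (log2 fold change -1.23, adjusted p = 1.52e-06). ATF7IP, the nuclear partner of SETDB1, rose 1.92-fold (adjusted p = 8.19e-04), and FAM208A, a HUSH complex subunit, rose 1.37-fold (adjusted p = 0.0343) with overlapping groups. For FAM208A the call was lost on leaving out control replicate 2 (0.0687) or 3 (0.174) or knockdown replicate 2 (0.14) or 3 (0.111). PRC2 subunits were higher in 3 of 9 cases and lower in 1 (44.4% called), and with the replicate block 2 were higher and 0 lower. The PRC2 cofactor JARID2 rose 1.56-fold and the histone-binding RBBP7 1.35-fold, while EED, which binds trimethylated H3K27, fell 1.31-fold (adjusted p = 3.51e-04, 0.00242 and 0.011).

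COMPASS partners were higher in 2 of 14 cases and lower in 2, or 28.6% called against 32.7% of all genes. The higher count fell to 1 with DESeq2, with no filter, with the replicate block, and without control replicate 2 or 3 or knockdown replicate 2 or 3. PAGR1 rose 1.54-fold, and DPY30, a core subunit, and PSIP1, a chromatin tether of KMT2A, fell 1.42-fold and 1.40-fold (adjusted p = 0.00667, 0.00682 and 0.00323), the DPY30 call being lost without knockdown replicate 3 (0.0524). Of 6 DOT1L partners MLLT6 (1.64-fold) and MLLT10 (1.29-fold) rose, with adjusted p of 5.03e-04 and 0.0263, and the 33.3% called is close to the share of all genes. MLLT10 did not pass without control replicate 2 (0.0882) or 3 (0.0924) or knockdown replicate 2 (0.0725) or 3 (0.144). JmjC and SET genes outside the name rule were higher in 3 of 14 cases and lower in 5 (57.1% called). Lower genes numbered 3 on leaving out knockdown replicate 3 and 2 with the replicate block. The H3K9 demethylase gene HR rose 2.42-fold (adjusted p = 7.27e-06), and JMJD8 and HSPBAP1 each fell 1.90-fold (adjusted p = 3.99e-04 and 8.91e-04). Among 8 arginine methyltransferases PRMT6, which methylates H3 arginine, rose 2.78-fold from a low level, 3.3 to 5.01 CPM in control (adjusted p = 1.54e-04), and PRMT10 fell 1.32-fold (adjusted p = 0.0387). These calls were 25% of the list, and that of PRMT10 was lost with DESeq2 (0.0708), without control replicate 3 (0.15) and without knockdown replicate 1 (0.0606) or 3 (0.175). Genes of S-adenosylmethionine supply were higher in 2 of 10 cases and lower in 1, or 30% called against 32.7% of all genes. Of these, MTR of the methionine cycle rose 1.43-fold (adjusted p = 0.00755) and MAT1A, at 4.4 to 5.87 CPM in control, fell 2.55-fold (adjusted p = 9.07e-04). MAT2A, the S-adenosylmethionine synthetase gene of most non-hepatic cells, was at 217 to 259 CPM in control and 207 to 216 CPM in knockdown libraries and did not pass (log2 fold change -0.16, adjusted p = 0.229). Messenger RNA was measured here, not enzyme protein or histone methylation.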

How the data were processed

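RNA from cells labelled HT29 was sequenced in 6 libraries, 3 per group, grouped and numbered from the sample titles. Per the labels' protocols, total RNA was taken with Trizol and libraries were made with an Illumina TruSeq RNA kit. The authors deposited raw read counts by gene symbol, 1 table a library. Per the submitters' processing notes, TopHat2 2.0.11 and HTSeq were used with hg19 (GRCh37). No source used here gives the HTSeq version, strand setting or annotation release. Rows for reads outside single genes, 27.3% to 29.4% of listed reads, were left out.

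The members and gene lists were chosen with earlier results of these data known. Counts were analysed in R 4.3.3 with edgeR 4.0.16: filterByExpr (minimum count 10, minimum total 15), TMM scaling, a robust quasi-likelihood fit with group as its only term on all 14685 genes kept, and Benjamini-Hochberg adjustment. Log2 fold changes use a prior count of 0.125, and a call needs an adjusted p below 0.05. Every adjusted p is from this test unless another is named. The fit was tested on simulated data. Alternatives were RLE and upper-quartile scaling, DESeq2 1.42.0, limma-voom (limma 3.58.1), no filter, a replicate block, and leaving out each library.

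Values in 6 libraries are given for SETD7, for called members without overlap (up to 12 rises and 12 falls) and for the member of highest level per kilobase in each class. Up to 3 called genes are named from each partner list. Values of KDM3A, KDM4C, SETD2 and EZH1, MAT2A and SETD5-AS1 were chosen for print after their values were seen. Exon lengths are merged exons of GENCODE release 29 (GRCh38, another build than the counts), matched for all 68 members, 5 of them through newer symbols. Long alternative exons lower a level per kilobase. Promoters are from RefSeq. Some single-gene results are not reported here.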

Additional observations from a re-analysis of the deposited data

How the results depend on the processing

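SETD7 and RNF6 kept their direction and their call under all 12 alternatives. Of the 27 called members 15 kept their call under all 12 alternatives, 12 lost it under at least 1 and 0 changed sign, and 6 of the 34 other tested members were called under at least 1. DESeq2 kept 24 of the 27 calls and limma-voom 27. Same-numbered libraries of the groups did not deviate together (correlations of -0.463, -0.252 and 0.052 for numbers 1, 2 and 3). Control replicate 2 correlated best with RNF6 siRNA replicate 1 (0.461). Deviations from a mean of 3 libraries are tied to each other, so these correlations cannot show whether same-numbered libraries were prepared together. With the replicate block, the number of all genes called higher was 1421 and of all genes called lower 1321, 13 members were higher and 3 lower, 7 partner genes were lower, and 16 of the 27 member calls held. Leaving out each library in turn gave 12 to 24 higher and 3 to 6 lower members. It gave 1514 to 2910 all genes called higher (1514 without control replicate 3, 1529 without RNF6 siRNA replicate 3) and 1478 to 2967 all genes called lower (1478 without RNF6 siRNA replicate 3). Higher partner genes then numbered 15 to 24 and lower ones 8 to 15. The median log2 fold change of tested members then ran from 0.111 to 0.203. The cause of these changes was not tested, beyond the smaller number of libraries. In the simulated data, 50 genes were changed at each fold and 14485 were left unchanged. The fit recovered 14% of the 1.3-fold changes, 50% of the 1.5-fold changes, 86% of the 2-fold changes and 98% of the 3-fold changes. It also called 13 of the unchanged genes. In the measured data 32.7% of all genes tested were called, so recovery there may differ. Members that were not called with 3 libraries a group, such as EHMT1 and KDM5C, are thus not shown to be unchanged.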

Other observations

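Antisense-named, intronic and pseudogene symbols of the members were outside the name rule. Of 9 such symbols, 3 had enough reads to be tested. Besides SETD5-AS1, KDM4A-AS1 had 1.68 to 2.56 CPM in control and 1.62 to 1.97 CPM in RNF6 siRNA libraries (log2 fold change -0.20, edgeR adjusted p = 0.613), and ASH1L-AS1 had a log2 fold change of -0.17 (adjusted p = 0.758). KMT2E-AS1, which was not tested, had 0.413 to 0.533 CPM in control and 0.359 to 1.29 CPM in RNF6 siRNA libraries, from 3 to 14 reads each. The EZH2 pseudogene EZH2P1 had at most 2 reads in any library.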
